A study of Homo sapiens with 8 samples.

Results

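The suprabasal keratins are the intermediate filament proteins that squamous cells make once they leave the basal layer. Here they are 9 genes, taken by symbol from the deposited table of 25369 genes: the mucosal keratins KRT4, KRT13, KRT76 and KRT78, the epidermal suprabasal keratins KRT1, KRT2, KRT10 and KRT77, and KRT80. All 9 were found in the table, and 7 passed the filter on low values (at least 0.5 RPKM in at least 4 of the 8 libraries). KRT76 and KRT77 did not pass it and are given by their values. RPKM is a read count divided by gene length and by the depth of the library, so levels can be compared between genes.

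The cells were EPC2-hTERT, human keratinocytes of the esophagus kept dividing by telomerase, and their RNA was sequenced. Lentivirus carried a hairpin RNA against HIF1A into the HIF1A-KD cells (4 libraries) and a control hairpin into the shCtrl cells (4 libraries). HIF1A is the subunit of HIF-1, a transcription factor, whose level oxygen controls. Both lines were seeded on porous membranes (0.4 µm), reached confluence in 2 days, then spent 5 days at 1.8 mM CaCl2 and a further 4 days with the surface open to air, which makes such cells build layers. The medium held bovine pituitary extract and epidermal growth factor. Dimethyloxalylglycine, which blocks the hydroxylases that act on HIF, and a vehicle also appear in the labels, with no library assigned to them. The labels do not say whether the lines were clones, how many hairpins were used, or whether libraries of a group came from separate cultures, so p-values measure the spread between these libraries, which may be technical.

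Keratins form filaments as pairs of a type I and a type II chain. In stratified epithelia the basal pair KRT5 and KRT14 gives way to other pairs as cells move up, KRT1 with KRT10 in the cornifying epidermis and KRT4 with KRT13 in moist mucosa such as the esophagus. KRT13 and KRT10 are type I chains and the other 7 are type II chains.

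Read totals implied by the table ran from 38068729 to 65326907 per library. The HIF1A transcript held 27.6, 19.0, 54.8 and 45.0 RPKM in HIF1A-KD libraries 1 to 4, against 95.2, 51.4, 89.8 and 122 RPKM in shCtrl libraries 1 to 4. The groups overlapped, with HIF1A-KD 3 above shCtrl 2, while within each number the HIF1A-KD library held less (log2 change −1.34, SE 0.37; limma adjusted p = 0.319, and 0.0253 with the library number as a block). That call was lost without number 1 (adjusted p = 0.107), 2 (0.187) or 4 (0.0524). In both groups libraries 1 and 2 separated from 3 and 4 on the leading principal component, which held 41.9% of the variance. The labels name no such split, and values within each side are given below. Squamous markers were abundant, with KRT5 at 4977 ± 381 and 5261 ± 991 RPKM in HIF1A-KD and shCtrl (SD, n = 4 each). Of 7 leukocyte markers 4 were listed at 0 in every library, PTPRC, CD3E and TPSAB1 among them. The list summed to 19.1 to 86.5 RPKM in HIF1A-KD and 23.5 to 115 RPKM in shCtrl, nearly all of it CD68, a lysosomal protein, at 51.0 ± 27.6 and 71.2 ± 40.2 RPKM, while LYZ, the gene for lysozyme, averaged 0.365 and 0.0356 RPKM. Summed columnar epithelium markers came to at most 0.0259 RPKM in HIF1A-KD and 0.0421 RPKM in shCtrl, and melanocyte markers to at most 1.95 and 0.900 RPKM. The endothelial list summed to 1.39 to 12.6 RPKM in HIF1A-KD and 0.656 to 15.5 RPKM in shCtrl. Markers of proliferating cells summed to 25.6 to 45.1 and 32.6 to 44.1 RPKM. The highest single value was 44.2 RPKM in that list and 15.3 RPKM in the endothelial list, so sums can rest largely on 1 gene. The 2 of 6 proliferation markers that were tested had log2 changes below 0 and did not pass limma with or without the block. Of 8 mesenchymal markers only COL1A1 was tested, at 15.6 ± 2.43 RPKM in HIF1A-KD and 23.7 ± 2.84 RPKM in shCtrl, with groups that did not overlap (adjusted p = 0.319), while COL1A2, COL3A1, DCN and LUM averaged at most 0.00875 RPKM in either group. The summed mesenchymal list ran from 14.3 to 19.5 RPKM in HIF1A-KD and from 22.4 to 29.1 RPKM in shCtrl, and its part in the results below was not tested.

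Among both the mucosal and the epidermal members, the abundant pairs had higher means in HIF1A-KD. KRT4 averaged 3.94 times and KRT10 5.52 times the shCtrl mean, and for these 2 of the 7 tested members the groups did not overlap. Groups did not overlap for 5.4% of all 11899 genes tested, and with HIF1A-KD higher for 3.27%. KRT13 averaged 3.17 times and KRT1 1.91 times the shCtrl mean with groups that overlapped, KRT78 showed no common direction, and KRT80 averaged 46.9% of the shCtrl mean. None of the 7 passed limma without a block, and 5 of the 7 had an unadjusted p under 0.05 (KRT4, KRT13, KRT1, KRT10 and KRT80), while limma-voom on reads recovered from the table also called 0, against 0.0424% of genes. Of all genes, limma without a block called 0.042%, and 7.8% had an unadjusted p under 0.05. With the library number as a block, KRT10 alone of the 7 passed, where 1.83% of all genes did and 0.74% rose. KRT4, KRT13 and KRT10 were higher and KRT80 lower for all 4 numbers, where 29.3% of all genes had a common direction. For KRT4 and KRT10 this follows from the lack of overlap and adds nothing to it. In bulk RNA such as this, more cells of a suprabasal type and more transcript per cell cannot be told apart.

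**Figure D1:**
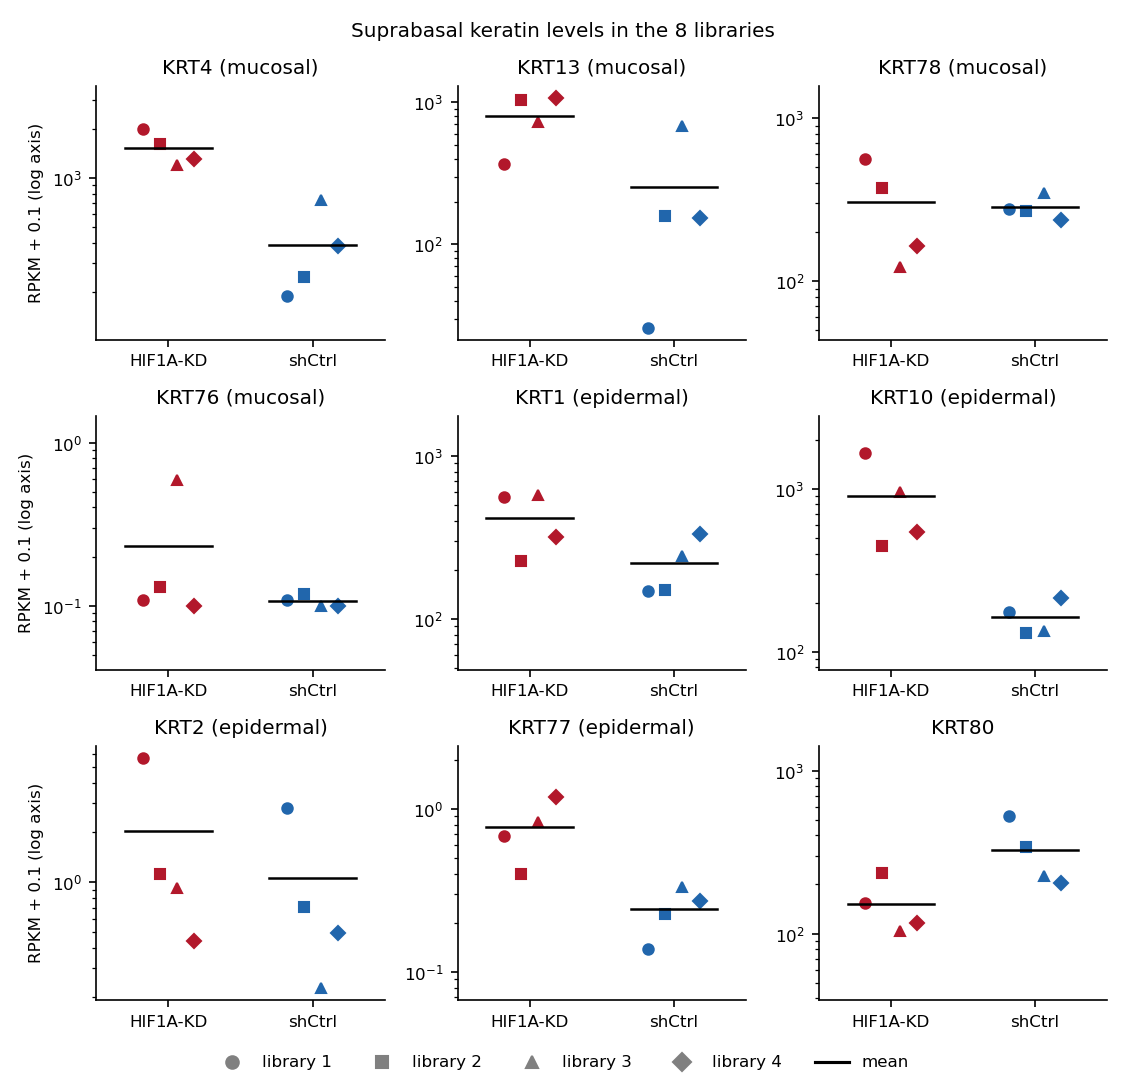
Level of each of the 9 keratins in every library, as RPKM + 0.1 on a log axis with its own range in each panel. Points are libraries, with the number given by the symbol, and lines are group means. KRT4, KRT10 and KRT77 have all 4 HIF1A-KD libraries above all 4 shCtrl libraries, and KRT80 is lower in HIF1A-KD in each number.

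KRT4, the type II chain of the mucosal pair (chromosome 12, 53200327 to 53207900, minus strand, hg19), held 1984, 1608, 1194 and 1298 RPKM in HIF1A-KD 1 to 4, against 188, 246, 729 and 382 RPKM in shCtrl 1 to 4. The lowest HIF1A-KD library lay above the highest shCtrl library, which was shCtrl 3. The means were 1521 ± 355 RPKM in HIF1A-KD and 386 ± 242 RPKM in shCtrl (SD, n = 4 each), a log2 change of 2.15 (SE 0.39) that did not pass limma (adjusted p = 0.107, and 0.0786 with the block). A two-sided exact permutation test of 4 against 4 libraries gave p = 0.0286, the smallest that this design allows.

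KRT10, the type I chain of the epidermal pair (chromosome 17, 38974369 to 38978863, minus strand, hg19), held 1658, 442, 953 and 539 RPKM in HIF1A-KD 1 to 4, against 176, 130, 133 and 212 RPKM in shCtrl 1 to 4. The shCtrl libraries lay close together and all HIF1A-KD libraries were above them, with HIF1A-KD 1 the highest. The means were 898 ± 553 RPKM in HIF1A-KD and 163 ± 39.2 RPKM in shCtrl (SD, n = 4 each). The log2 change was 2.30 (SE 0.40 without and 0.33 with the block), the adjusted p was 0.0873 in limma without the block and 0.0432 with it, and the exact permutation test gave p = 0.0286. KRT10 therefore passed limma only with the block, which treats libraries of the same number as paired. The labels state no pairing, and it is doubtful for numbers 3 and 4. The KRT10 call was lost in the paired fit without number 1 (adjusted p = 0.114), 2 (0.177) or 3 (0.0953) and held without number 4 (0.0411). The gene TMEM99 on the opposite strand overlaps KRT10 by 3520 bases, and strand use in counting was not given in the sources used here. TMEM99 was listed at 1.75 to 4.11 RPKM in HIF1A-KD and 1.16 to 2.69 RPKM in shCtrl.

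The 250 bases upstream of the RefSeq start sites of KRT4 and KRT10 are shown because these are the tested members whose groups did not overlap. They come from the RefSeq promoter table of build GRCh38.p14, which matched 4 of the 9 members (KRT2, KRT4, KRT10 and KRT76), and lie at chr12:52814117-52814366 and chr17:40822615-40822864, both on the minus strand. Both strands were searched for the core of the HIF binding site (ACGTG or GCGTG), the AP-1 site (TGANTCA), the TATA box (TATAAA) and the CACCC box that KLF factors bind (CACCC), and matches, which did not overlap here, are in capitals.
KRT4: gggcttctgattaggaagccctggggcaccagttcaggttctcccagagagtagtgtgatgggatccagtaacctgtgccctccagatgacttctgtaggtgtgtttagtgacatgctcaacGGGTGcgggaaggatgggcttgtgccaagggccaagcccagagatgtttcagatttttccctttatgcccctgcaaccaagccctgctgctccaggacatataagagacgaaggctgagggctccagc
KRT10: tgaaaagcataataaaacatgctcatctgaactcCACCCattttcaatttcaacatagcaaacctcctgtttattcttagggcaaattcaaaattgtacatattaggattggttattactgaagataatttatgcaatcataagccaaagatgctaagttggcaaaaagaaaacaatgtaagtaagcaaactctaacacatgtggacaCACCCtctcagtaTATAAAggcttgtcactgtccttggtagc
The KRT4 window held 1 match, a CACCC box read on the other strand, 128 bases before the start. The KRT10 window held CACCC boxes 216 and 42 bases before the start and a TATA box 29 bases before it. Neither window held the letters of the HIF core or the AP-1 site, and among the members only the KRT2 window had the HIF core, at 113 and 78 bases. Among the upstream windows of 35116 RefSeq promoters, 43.2% held the HIF core, 6.57% the AP-1 site, 10.7% the TATA box and 54.7% the CACCC box. These matches describe letters, and no binding was measured.

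KRT13, the type I partner of KRT4 (chromosome 17, 39657233 to 39661865, minus strand, hg19), held 367, 1034, 721 and 1081 RPKM in HIF1A-KD 1 to 4, against 25.7, 157, 676 and 152 RPKM in shCtrl 1 to 4. The groups overlapped, because shCtrl 3 lay above HIF1A-KD 1, and shCtrl 1 was the lowest of all. The means were 801 ± 330 RPKM in HIF1A-KD and 253 ± 289 RPKM in shCtrl (SD, n = 4 each), and without shCtrl 3 the shCtrl mean was 112 ± 74.7 RPKM (SD, n = 3). The log2 change of 2.37 (SE 0.84) did not pass limma (adjusted p = 0.464, and 0.116 with the block; exact permutation p = 0.0571). KRT13 was 14.3, 6.57 and 7.09 times as high in HIF1A-KD as in shCtrl for numbers 1, 2 and 4, and 1.07 times for number 3. Without shCtrl 1 the unpaired log2 change of KRT13 was 1.54, and without shCtrl 3 it was 3.11. In the paired fit without number 3, where 1.64% of all genes passed, KRT13 (log2 change 3.12, adjusted p = 0.0143) and KRT4 (2.62, adjusted p = 0.0476) passed. Without number 1, 2 or 4 the paired adjusted p was 0.315, 0.346 and 0.269 for KRT13 and 0.218, 0.290 and 0.182 for KRT4.

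KRT78, a type II keratin of esophagus and tongue (chromosome 12, 53232746 to 53242778, minus strand, hg19), went in opposite directions on the sides of the library split. HIF1A-KD 1 to 4 held 563, 374, 123 and 165 RPKM, against 277, 271, 350 and 239 RPKM in shCtrl 1 to 4. HIF1A-KD 1 and 2 were above all 4 shCtrl libraries and HIF1A-KD 3 and 4 below all 4. The means were thus close, at 306 ± 203 RPKM in HIF1A-KD and 284 ± 46.9 RPKM in shCtrl (SD, n = 4 each; log2 change −0.14, SE 0.44, limma adjusted p = 0.992). KRT78 had a log2 change of 0.74 among libraries 1 and 2 and of −1.02 among libraries 3 and 4, and the difference between these was not tested.

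KRT76, a type II keratin of the palate and gingiva (chromosome 12, 53161939 to 53171129, minus strand, hg19), was near the detection limit. HIF1A-KD libraries 1 to 4 had 1, 5, 58 and 0 reads, against 1, 2, 0 and 0 reads in shCtrl libraries 1 to 4. The 58 reads of HIF1A-KD 3 corresponded to 0.486 RPKM (exact Poisson 95% interval 44.0 to 75.0 reads, counting error only). The floor used for a count of 0, 3 reads, was 0.0312 RPKM in HIF1A-KD 4 and 0.0226 and 0.0248 RPKM in shCtrl 3 and 4. The exact Poisson interval for a count of 0 reaches somewhat higher, to 3.69 reads. No difference between the groups can be read outside that 1 library.

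KRT1, the type II partner of KRT10 (chromosome 12, 53068520 to 53074191, minus strand, hg19), held 557, 225, 574 and 317 RPKM in HIF1A-KD 1 to 4, against 149, 151, 245 and 333 RPKM in shCtrl 1 to 4. The groups overlapped, since shCtrl 4 was above HIF1A-KD 2 and 4 and shCtrl 3 above HIF1A-KD 2. The means were 418 ± 174 RPKM in HIF1A-KD and 219 ± 87.8 RPKM in shCtrl (SD, n = 4 each; log2 change 0.91, SE 0.37, limma adjusted p = 0.586, and 0.2004 with the block; exact permutation p = 0.143). KRT1 was higher in the HIF1A-KD library for numbers 1, 2 and 3 and 0.953 times the shCtrl level for number 4.

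KRT2, a late type II keratin of the upper epidermis (chromosome 12, 53038342 to 53045959, minus strand, hg19), and KRT77, a type II keratin known from sweat gland ducts (chromosome 12, 53083411 to 53097247, minus strand, hg19), were both low. KRT2 held 5.57, 1.01, 0.816 and 0.337 RPKM in HIF1A-KD 1 to 4, against 2.70, 0.604, 0.126 and 0.390 RPKM in shCtrl 1 to 4. In both groups library 1 was the highest, and without it the KRT2 mean was 0.723 RPKM in HIF1A-KD (1.93 with it) and 0.374 RPKM in shCtrl (0.956 with it). The groups overlapped and KRT2 did not pass limma (log2 change 0.88, SE 0.91, adjusted p = 0.940, and 0.278 with the block). The log2 change of KRT2 was 0.16 without HIF1A-KD 1 and 1.56 without shCtrl 1. KRT77 held 0.584, 0.301, 0.731 and 1.08 RPKM in HIF1A-KD 1 to 4, against 0.0375, 0.126, 0.231 and 0.171 RPKM in shCtrl 1 to 4. The KRT77 groups did not overlap, on 403 reads in HIF1A-KD and 91 reads in shCtrl in all. The exact permutation test gave p = 0.0286. With no filter on low values KRT77 had a log2 change of 1.65 on the log2(RPKM + 0.1) scale, which understates changes at this level, and did not pass limma (adjusted p = 0.805).

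KRT80, a type II keratin found in many epithelia (chromosome 12, 52562780 to 52585784, minus strand, hg19), was the member that was lower in HIF1A-KD for every number. It held 154, 234, 104 and 117 RPKM in HIF1A-KD 1 to 4, against 528, 339, 227 and 203 RPKM in shCtrl 1 to 4. The groups overlapped because HIF1A-KD 2 was above shCtrl 3 and 4. The means were 152 ± 58.5 RPKM in HIF1A-KD and 324 ± 148 RPKM in shCtrl (SD, n = 4 each). The log2 change of −1.06 (SE 0.35 without and 0.20 with the block) did not pass limma (adjusted p = 0.426, and 0.0583 with the block; exact permutation p = 0.0857). It passed with a term for libraries 1 and 2 against 3 and 4 (adjusted p = 0.0472), a fit in which 0.857% of all genes passed. The 9 permutation tests were two-sided on log2(RPKM + 0.1), took no account of the numbers and were not adjusted. Those not given above had exact permutation p = 0.8 for KRT78, 0.457 for KRT2 and 0.257 for KRT76.

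**Figure D2:**
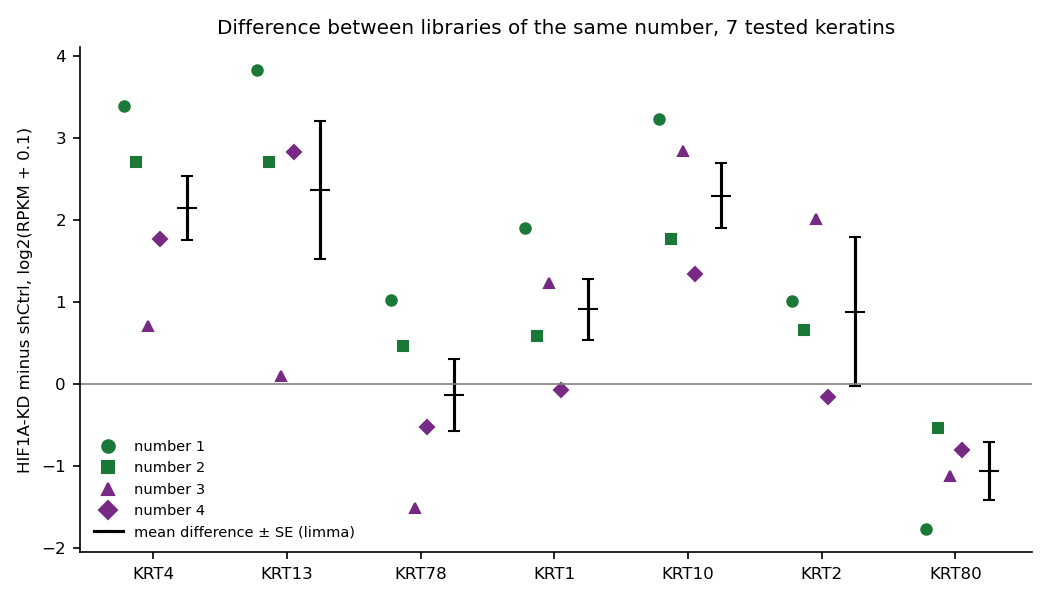
Difference in log2(RPKM + 0.1) between the HIF1A-KD and the shCtrl library of the same number for the 7 tested keratins, with numbers 1 and 2 in green and 3 and 4 in purple. The black bar is the mean difference ± SE from limma without a block. KRT4, KRT13 and KRT10 lie above 0 and KRT80 below 0 in all 4 numbers, while KRT78 lies above 0 for numbers 1 and 2 and below it for 3 and 4.

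Values within each side of the library split were as follows. Among libraries 1 and 2 the log2 change was 3.05 for KRT4 and 3.27 for KRT13, and among libraries 3 and 4 it was 1.24 and 1.46. For KRT10 it was 2.50 among libraries 1 and 2 and 2.09 among 3 and 4, and for KRT80 −1.16 and −0.96. KRT1 had 1.24 and 0.58, and KRT2 0.84 and 0.93. None of these passed limma on its own side, where each fit had 2 libraries a group, and the differences between the sides were not tested. What separates libraries 1 and 2 from 3 and 4 is not in the labels, and its part in these values was not tested.

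The order of the members' levels differed between the groups. In HIF1A-KD it ran KRT4, KRT10, KRT13, KRT1, KRT78 and KRT80, then KRT2, KRT77 and KRT76, by mean RPKM. In shCtrl it ran KRT4, KRT80, KRT78, KRT13, KRT1 and KRT10, then KRT2, KRT77 and KRT76. KRT10 was thus second in HIF1A-KD and sixth in shCtrl, and KRT80 sixth in HIF1A-KD and second in shCtrl. Neighbours in either order had overlapping ranges, apart from the step down to KRT2 in both groups and the step from KRT77 to KRT76 in shCtrl. By mean RPKM KRT4 ranked 37 among all genes of the table in HIF1A-KD and 167 in shCtrl, and KRT10 ranked 86 in HIF1A-KD and 366 in shCtrl.

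Summed over the 54 keratin genes of the table, keratin transcripts came to 37969 to 52378 RPKM in HIF1A-KD and 39119 to 53060 RPKM in shCtrl, ranges that nearly coincided. The 9 members took 11.4%, 7.48%, 9.41% and 9.27% of that sum in HIF1A-KD 1 to 4, against 2.88%, 2.44%, 5.77% and 3.89% in shCtrl 1 to 4. Every HIF1A-KD library was above every shCtrl library. The wound-type keratins KRT6A, KRT6B, KRT6C, KRT16 and KRT17 took most of the sum, from 56.7% to 71.4% in HIF1A-KD and from 67.1% to 78.4% in shCtrl, and the basal keratins took 18.4% to 29.3% and 16.6% to 25.4%. The members thus made up a small part of the keratin transcripts in both groups.

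The balance of mucosal to epidermal members overlapped between the groups. The summed mucosal members were 1.31, 4.51, 1.33 and 2.96 times the summed epidermal members in HIF1A-KD 1 to 4, against 1.496, 2.40, 4.64 and 1.42 times in shCtrl 1 to 4. Both groups covered nearly the same range of this ratio. Within the epidermal pair, KRT1 was 0.336, 0.510, 0.602 and 0.588 times KRT10 in HIF1A-KD, against 0.847, 1.16, 1.84 and 1.57 times in shCtrl. All HIF1A-KD libraries were below all shCtrl libraries, so KRT10 exceeded KRT1 in each HIF1A-KD library and in 1 of 4 shCtrl libraries. Within the mucosal pair, KRT4 was 5.41, 1.56, 1.66 and 1.201 times KRT13 in HIF1A-KD, against 7.33, 1.56, 1.08 and 2.50 times in shCtrl, and the groups overlapped. Library 1 had the highest ratio in both groups. These ratios are sums and quotients over chosen genes and are given without a test.

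**Figure D3:**
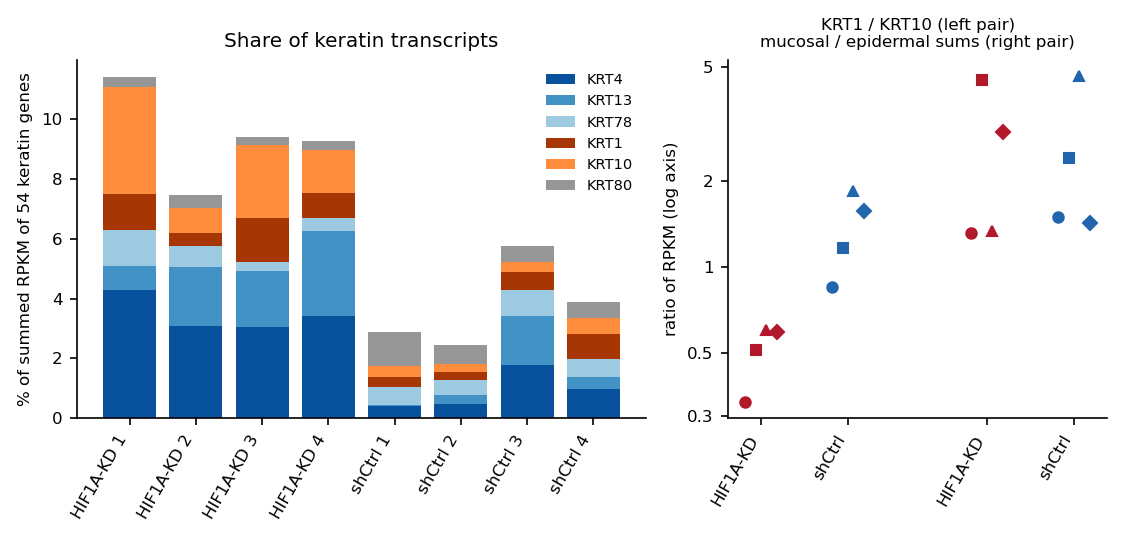
Left, share of the summed RPKM of 54 keratin genes taken by the 6 abundant members in each library (KRT2, KRT76 and KRT77 are too low to show). Right, KRT1 over KRT10 and summed mucosal over summed epidermal members on a log axis, with circles, squares, triangles and diamonds for libraries 1 to 4. The KRT1 to KRT10 ratio runs from 0.336 to 0.602 in HIF1A-KD and from 0.847 to 1.84 in shCtrl, while the mucosal to epidermal ratio overlaps.

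The genes for the 7 type II members lie within the keratin cluster of chromosome 12 and those for KRT10 and KRT13 within that of chromosome 17. The neighbours KRT2 and KRT1 on chromosome 12 had log2 changes of 0.88 and 0.91. KRT4 and KRT78 are separated by KRT79 alone among the 27 keratin genes listed on chromosome 12, and had log2 changes of 2.15 and −0.14; differences between neighbours were not tested. KRT79, also a type II keratin, held 1.76 ± 0.85 RPKM in HIF1A-KD and 4.25 ± 5.61 RPKM in shCtrl (SD, n = 4 each), with a log2 change of −0.51 and an adjusted p of 0.9753 in limma. On chromosome 17 the next tested gene after KRT13 is the basal keratin KRT15 (log2 change 1.24, adjusted p = 0.649) and then the simple-epithelial keratin KRT19 (1.35, adjusted p = 0.453). Keratin genes are similar in sequence, and how reads that match several of them were counted was not tested.

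**Figure D4:**
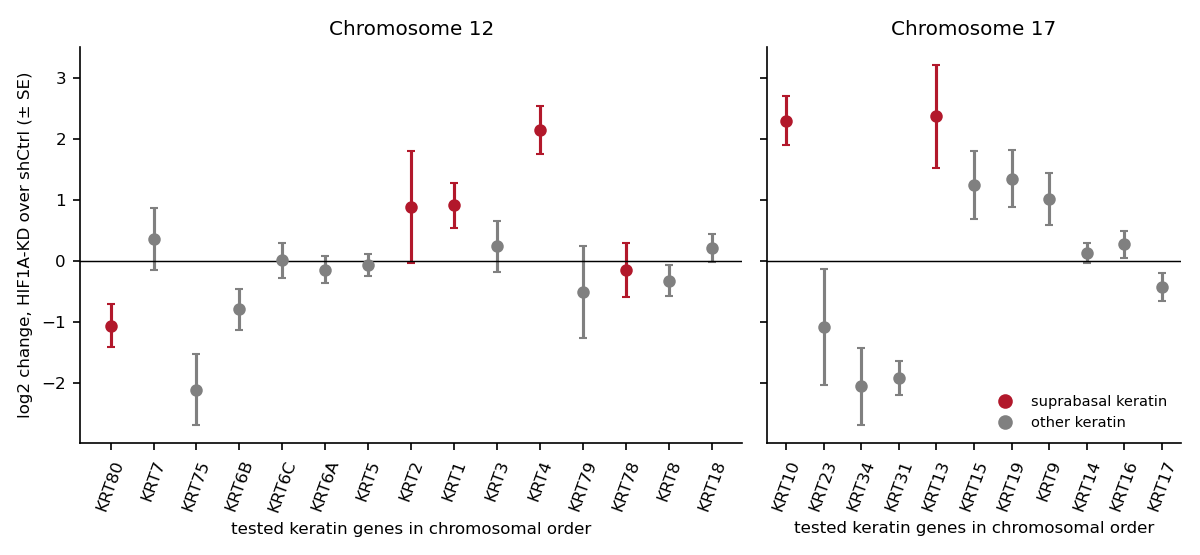
Log2 change of the 26 tested keratin genes (HIF1A-KD over shCtrl, ± SE from limma without a block) in chromosomal order, with suprabasal members in red. KRT4, KRT10 and KRT13 have the highest values, at 2.15, 2.30 and 2.37. The basal and wound-type keratins run from −0.79 (KRT6B) to 1.24 (KRT15). KRT15, beside KRT13, and the simple-epithelial KRT19 (1.35) lie above the members KRT1 (0.91) and KRT2 (0.88).

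Among the 19 tested keratins other than the members, 9 had log2 changes above 0 and 10 below, with a median of −0.06. The 7 tested members had 5 above and 2 below with a median of 0.91, and over all tested genes 58.7% were above 0 with a median of 0.06. None of the 19 passed limma without a block. Groups did not overlap for 3 of the 19, KRT75, KRT31 and KRT34, all lower in HIF1A-KD, where 5.4% of all genes did not overlap. With the block 3 fell, where 1.09% of all genes did, the hair follicle keratins KRT75 (6.32 ± 1.91 RPKM in HIF1A-KD and 35.6 ± 27.5 RPKM in shCtrl; adjusted p = 0.0459), KRT31 (log2 change −1.92, adjusted p = 0.0122) and KRT34 (−2.05, adjusted p = 0.0373). The paired call of KRT75 was lost without any 1 of the 4 numbers (adjusted p 0.0509 to 0.212), that of KRT31 without number 1 (0.0877) or 2 (0.145), and that of KRT34 without number 1 (0.172), 2 (0.177) or 3 (0.0773). KRT31 and KRT34 were in no list and were named after their values were seen. The basal keratins KRT5 (log2 change −0.06) and KRT14 (0.13) and the wound-type keratins KRT6A (−0.14) and KRT17 (−0.42) did not pass, at adjusted p of 0.988, 0.965, 0.979 and 0.751 in limma without the block. The basal KRT15 (log2 change 1.24, limma adjusted p = 0.649) and the wound-type KRT6B (−0.79, 0.610) lay further from 0 and did not pass either.

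Keratin filament partners, here a list of filament bundling, desmosomal and cornified envelope genes, were centred near no change but spread widely. Their log2 changes ran from −2.92 for LOR, the gene for loricrin, to 1.36 for the transglutaminase TGM3 (limma adjusted p = 0.659 and 0.799). LOR held 3.93 ± 4.47 RPKM in HIF1A-KD and 19.2 ± 17.8 RPKM in shCtrl, with groups that overlapped. Of 20 tested, 0 passed limma with or without the block and 0 passed limma-voom, 1 had an unadjusted p under 0.05 without the block and 4 with it (19.6% of all genes with it), and the median log2 change was −0.003. JUP, the desmosomal plaque protein plakoglobin, held 1137 ± 125 RPKM in HIF1A-KD and 1133 ± 147 RPKM in shCtrl, and CNFN, a cornified envelope protein, 698 ± 356 and 1772 ± 1480 RPKM, all SD over 4 libraries. CNFN had a log2 change of −1.18 (limma adjusted p = 0.672). Of 38 tested regulators of squamous differentiation, 0 passed limma with or without the block and 0 passed limma-voom, with 3 and 5 at an unadjusted p under 0.05 and a median log2 change of 0.12. The most abundant were HOPX (548 ± 218 RPKM in HIF1A-KD and 496 ± 84.0 RPKM in shCtrl) and the AP-1 subunit JUNB (326 ± 63.7 and 278 ± 37.2 RPKM). Of the 3 tested basal, 5 wound-type and 5 simple-epithelial keratins, none passed either fit. KRT23, a simple-epithelial type I keratin, held 62.7 ± 61.4 RPKM in HIF1A-KD and 194 ± 275 RPKM in shCtrl (SD, n = 4 each), and KRT9, the keratin of palms and soles, 9.82 ± 5.21 and 4.51 ± 1.74 RPKM. Groups did not overlap for 1 of the 20 tested filament partners, a share near the 5.4% of all genes. It was EVPL, the envelope protein envoplakin, at 100.2 ± 26.6 RPKM in HIF1A-KD and 63.2 ± 5.53 RPKM in shCtrl (limma adjusted p = 0.421). Of the 11 squamous markers, which include KRT4 and KRT13, 6 had log2 changes above 0 and 5 below, among them ECM1 at −0.51 and TP63 at −0.10. Groups did not overlap for 3 of the 11, KRT4 and the envelope genes SPRR3 and CRNN, against 5.4% of all genes. SPRR3 averaged 5784 ± 992 RPKM in HIF1A-KD and 2243 ± 1277 RPKM in shCtrl, and CRNN 1157 ± 266 and 534 ± 339 RPKM (SD, n = 4 each), at limma adjusted p of 0.309 and 0.525. Of that list only CDH1, the adherens junction protein E-cadherin, passed with the block and fell (95.2 ± 35.8 RPKM in HIF1A-KD and 159 ± 36.8 RPKM in shCtrl; adjusted p = 0.0318), a call lost without number 1 (0.119), 2 (0.212) or 3 (0.0545).

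The genes nearest to a member in pattern were found by the root-mean-square difference between profiles of log2(RPKM + 0.1) over the 8 libraries, each centred on its own mean, among 11898 genes. For KRT4 they were SPRR3 (0.44), LRG1 (0.44), FETUB (0.50), MAL (0.51) and ALDH3A1 (0.52). For KRT13 they were LGALS9 (0.39), CEACAM1 (0.44), CLCA4 (0.46), TMPRSS2 (0.47) and FAM3D (0.63). For KRT10 they were PLA2G4A (0.50), TSPAN12 (0.50), KIAA1211L (0.54), IGFBP2 (0.55) and CD36 (0.55), and for KRT1 PTPRZ1 (0.18), KLF8 (0.23), MYCL (0.24), PAIP2B (0.25) and CPT2 (0.26). TSPAN12, KIAA1211L and IGFBP2 were low, at most 2.42 RPKM in HIF1A-KD and 0.487 RPKM in shCtrl. They reached 0.5 RPKM in HIF1A-KD libraries only, so the filter kept them through the group where they were higher. Their nearness to KRT10 is therefore no support for a change. The members themselves were not each other's nearest. KRT13 stood 0.95 from KRT4 (rank 340 from KRT4 and 36 from KRT13), KRT1 stood 0.79 from KRT10 (rank 54 from KRT10 and 6775 from KRT1), and KRT4 stood 0.77 from KRT10, at rank 43 from KRT10. All profiles share the 2 groups and the separation of numbers 1 and 2 from 3 and 4, so nearness describes these libraries only.

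The authors' deposited table of their own comparison, made from the same libraries, lists 8 of the 9 members, all but KRT76. In it 4 of the 8 have an adjusted p under 0.05, where 9.02% of its 13627 genes do. In the authors' deposited table the moderated log2 ratio of HIF1A-KD over shCtrl is 1.83 for KRT10 (adjusted p = 2.76e-13), 1.08 for KRT77 (0.00627), 0.69 for KRT1 (0.0265) and −0.98 for KRT80 (4.67e-05). The authors' deposited table gives KRT4 0.79 (adjusted p = 0.0713), KRT13 0.60 (0.205), KRT2 0.57 (0.241) and KRT78 −0.10 (0.896). These moderated ratios are smaller in size than the log2 changes above and are a different measure.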

How the data were processed

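The deposited expression table holds RPKM values made by the authors, although its name speaks of counts. The submitters' processing notes name HTSeq 0.6.1, TopHat2 2.0.13 with Bowtie2 2.2.3.0, Picard 1.129, then SAMtools 1.3.1, bcl2fastq and FastQC 0.11.5. Builds GRCh37, hg19, GRCh38 and hg38 appear there without a role, and the table's haplotype contig names are those of hg19. Read counts and depth were recovered from steps in RPKM times length, which came out whole within 0.02 read for 100% of genes, leaving out 597 whose length could not be read. These depths set the counting precision, and intervals cover counting error only. The authors' second deposited table gives p-values, the log2 of a moderated fold ratio, and per group a signal of mean normalised reads. Its tool was not given in the sources used here. Its group means were within 1% of the recovered means for 99.99% of genes with group A as shCtrl, which sets the direction.

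From RPKM, limma 3.58.1 (R 4.3.3; trend and robust moderation, two-sided) was run on log2(RPKM + 0.1) for the 11899 genes that reached 0.5 RPKM in 4 or more libraries, Benjamini-Hochberg adjusted, with a threshold of 0.05. The fit was tested on simulated counts with a fixed spread and no split between libraries, so that test does not cover the split seen here. Members and lists were chosen with earlier results of these data known. Genes named beyond the members were the called members of each list, its 2 most abundant members, and the 5 nearest in pattern. Outside that rule, CRNN, EVPL, LOR, TGM3, ECM1, TP63, KRT15, KRT6B, KRT79, KRT31, KRT34, TMEM99 and the markers of other cell types were chosen after their values were seen. Deviations from the group means correlated between same-numbered libraries (across genes, 0.754, 0.730, 0.252 and 0.257), all over the limit of 0.1. The number was used as a block on that ground, from the data and not the labels. That limit did not single out same-numbered libraries, since HIF1A-KD 2 with shCtrl 1 also exceeded it (0.120). The pairing is therefore an assumption of the fits with the block. Pairing of 3 and 4 is doubtful: the correlation was 0.463 for HIF1A-KD 4 with shCtrl 3 and 0.613 for HIF1A-KD 3 with shCtrl 4.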

Additional observations from a re-analysis of the deposited data

Results flagged for a closer look

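KRT76 in HIF1A-KD 3, at 0.486 RPKM, stood far from the other 3 HIF1A-KD libraries, which held at most 0.0303 RPKM. KRT2 in HIF1A-KD 1, at 5.57 RPKM, stood far from the other 3, at 0.337 to 1.01 RPKM; shCtrl 1 was also the highest of its group for KRT2, at 2.70 RPKM. Dixon's test on RPKM, at its 95% critical value for 4 samples, picked out these values among the 2 groups of each of the 9 members. For normally distributed values chance gives such a value in about 1 in 20 groups. Whether that rate holds for RPKM near 0 was not tested.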

How the results depend on the processing

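KRT4, KRT13, KRT1, KRT2, KRT10 and KRT80 kept the direction of their log2 change under every alternative run, and none passed limma when any single library was left out. KRT78 changed sign, to 0.74 in libraries 1 and 2 only, 0.21 without HIF1A-KD 3, 0.07 without HIF1A-KD 4 and 0.32 in the block without number 3, against −0.14, and ran from −0.52 to 0.21 with 1 library left out. Calls appeared for KRT10 with the replicate block (2.30) and in the block without number 4 (2.62), for KRT4 (2.62) and KRT13 (3.12) in the block without number 3, and for KRT80 with a term for libraries 1 and 2 against 3 and 4 (−1.06). The replicate block changed no other call of a member. The count of genes past the threshold, 5, was 8 under median-of-ratios scaling, 3 with a pseudocount of 1 or of 0.01 or without trend and robust moderation, 102 with the term for the split, 218 with the replicate block, 0 in libraries 1 and 2 only (644 at an unadjusted p under 0.05) and 0 with no filter (1074), where 25369 genes were tested. Leaving out 1 library gave 0 to 3, and the block without number 1, 2, 3 or 4 gave 33, 1, 195 and 182. The causes of these moves were not tested. At 16 to 613 reads for KRT2, 6 to 136 for KRT77 and 0 to 58 for KRT76, counting limits the low members, while the other 6 had at least 2131 reads in every library.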
